A study of Mus musculus with 4 samples.

Results

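The genes of synaptic vesicles and of the machinery that releases transmitter were followed in mouse sympathetic ganglia (SG). They were a given list of 35 genes, matched by symbol through a rule that uses no measured value, and all 35 were listed in each of 4 RNA-seq libraries, out of 17667 genes listed in at least 1 library and 15275 listed in all 4. The study asked which genes move in opposite directions in SG when NT-3, a neurotrophic factor made by fat, is raised and when its receptor TRKC is reduced. Each library was made from T1-T4 SG pooled from 6 C57BL/6 mice aged 12 weeks and kept for 1 day at 5 °C. There were 2 WT libraries (WT 1 and WT 2), 1 library from TRKC+/- mice, which are heterozygous for a mutation of the TRKC gene, and 1 from AdNTF3-Tg mice, in which the adiponectin promoter drives NT-3 in adipocytes and not in the neurons measured. All mice, WT included, were cold-exposed, so nothing here compares cold with warmth.

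With 1 pool per mutant there was no test between genotypes and no p-value. In the study each mutant had its own WT controls, but the labels do not tie a WT library to a mutant cohort. Each mutant was therefore set against both WT libraries, and the difference between the 2 WT pools was the measure of how far pools differ. That difference may also hold differences between cohorts. Levels are in FPKM, reads scaled to transcript length and library size, and can be compared between genes. Ratios are log2((FPKM + 0.1)/(FPKM + 0.1)), so that a positive value means higher in the library named first, and a gene was called when its log2 ratio was at least 0.5 in size and of 1 direction against each WT library. Counting intervals are exact Clopper-Pearson 95% intervals of the log2 ratio of each library's share of reads. They are not intervals of the FPKM ratio itself, which also carries the pseudocount and the transcript length of each library, so a ratio can lie off centre in its interval or just outside it, and they cover counting error only, not differences between mice.

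The libraries held between 8665955 and 8894985 reads on genes. *Ntrk3*, which encodes TRKC, was at 2.45 FPKM in WT 1, 2.52 in WT 2, 2.72 in the library labelled TRKC+/- and 2.32 in AdNTF3-Tg (78, 83, 91 and 76 reads). It was thus not lower in the library labelled TRKC+/- than in either WT library, and a count over the whole gene does not show the loss of single exons, so that library is named by its label throughout. The 10 markers of sympathetic neurons, among them the transmitter enzymes *Th* and *Dbh*, were all present and summed to between 7392 and 7589 FPKM. Of 6 markers of central neurons, *Slc32a1* and *Slc6a5* were listed in no library, and the others summed to between 4.36 and 5.31 FPKM. Most of that sum was *Gad2*, between 4.10 and 4.95 FPKM. The 3 cholinergic markers summed to between 6.36 and 8.31 FPKM, and the 10 pan-neuronal markers to between 5791 and 6072 FPKM, lowest in AdNTF3-Tg. The 6 adipocyte markers were all listed and summed to 327 FPKM in WT 1, 298 in WT 2, 233 in AdNTF3-Tg and 168 in the library labelled TRKC+/-. In bulk tissue, fewer neurons and less RNA per neuron cannot be told apart.

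Sympathetic neurons store noradrenaline in vesicles and release it when calcium enters the varicosities of their axons. The vesicle protein synaptobrevin (VAMP) zips together with syntaxin and SNAP-25 of the plasma membrane into the SNARE complex, which brings the membranes to fuse. Synaptotagmins sense calcium, complexins clamp the partly zipped complex, MUNC13 and RIM proteins prime vesicles at the active zone, RAB3 proteins tether them, NSF and its SNAP adaptors take spent complexes apart, and dynamin with its partners retrieves the membrane. Peptide-filled dense-core vesicles use the same SNAREs and also need CAPS proteins.

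The release genes ranged from some of the most abundant transcripts of the ganglia to *Sv2b*, which was barely detected. The 35 genes made up 0.229% of the genes listed in all 4 libraries, and held 1.75% of the reads in WT 1, 1.80% in WT 2, 1.79% in the library labelled TRKC+/- and 1.84% in AdNTF3-Tg. Levels ran over 3 tiers, with 16 genes of 100 FPKM or more, 13 of 10 to 100 FPKM and 6 under 10 FPKM. Of the 34 pairs of neighbours in the order of levels, 16 had ranges over the 4 libraries that did not overlap, and the order within the other pairs was not resolved.

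**Figure D1:**
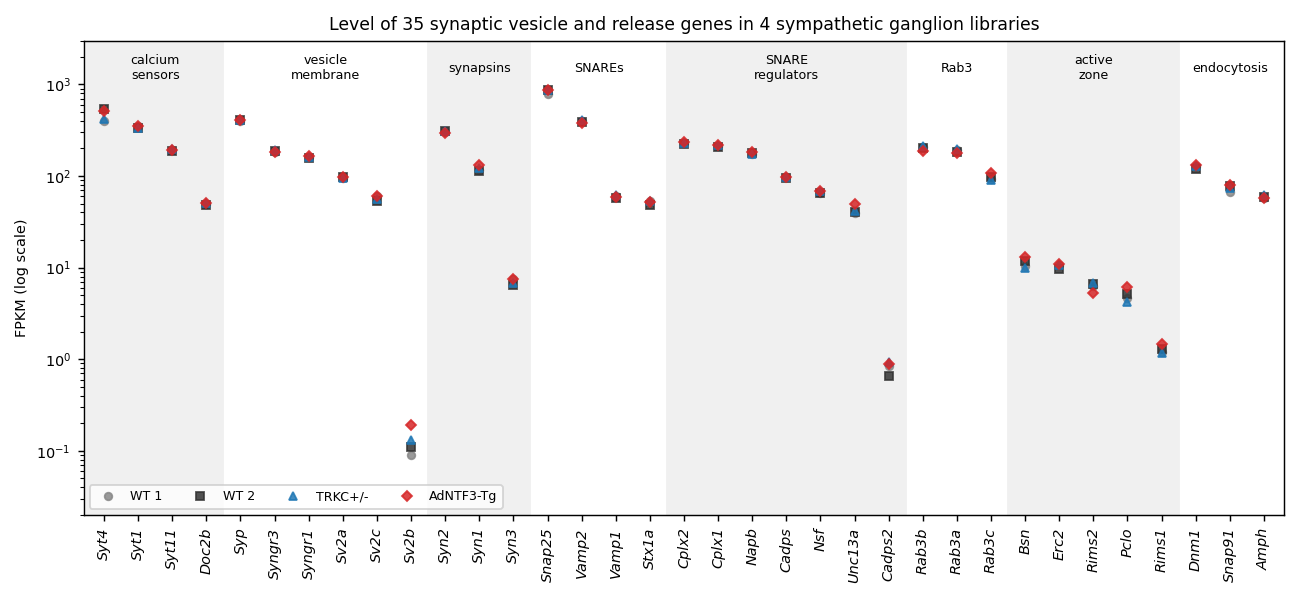
FPKM (log axis) of each of the 35 release genes in the 4 libraries, grouped by role and ordered by mean level within a role, with 1 marker per library and no error bar since each is a single pool. The 4 markers of a gene nearly coincide in the upper tiers, *Snap25* stands highest, and the active zone genes lie at 13.2 FPKM or less.

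Levels of the core SNARE genes differed widely. *Snap25* (chr2:136539189-136608164 on NCBIM37, the mm9 build) was at 787 FPKM in WT 1, 871 in WT 2, 873 in the library labelled TRKC+/- and 861 in AdNTF3-Tg, which placed it 30th of all genes listed in all 4 libraries and made it 15.1% to 16.2% of the FPKM of the list. Its range lay above that of each of the other 34 genes of the list. The vesicle SNARE *Vamp2* was at 399 FPKM in WT 1, 387 in WT 2, 411 in the library labelled TRKC+/- and 384 in AdNTF3-Tg. Its relative *Vamp1* lay between 57.9 and 61.4 FPKM, and the *Vamp2* to *Vamp1* ratio stayed between 6.48 and 6.70. The syntaxin gene *Stx1a* was at 53.9 FPKM in WT 1, 48.3 in WT 2, 53.6 in the library labelled TRKC+/- and 51.5 in AdNTF3-Tg, which left 1 *Stx1a* for every 14.6 to 18.0 *Snap25* by FPKM. The ubiquitous *Snap23* was 125 to 148 times below *Snap25*. The spread of the 4 SNARE genes over the libraries was small, and *Snap25* itself was lowest in WT 1 and alike in the other 3.

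Among the calcium sensors, *Syt4* was second in the whole list. *Syt4* (chr18:31597462-31607069), a synaptotagmin that does not bind calcium as *Syt1* does and sits on peptide-containing vesicles, was at 403 FPKM in WT 1, 537 in WT 2, 422 in the library labelled TRKC+/- and 515 in AdNTF3-Tg. The levels fell into 2 pairs, with WT 2 and AdNTF3-Tg high and WT 1 and the library labelled TRKC+/- low. The log2 ratio of WT 1 to WT 2 was -0.41 (counting interval -0.44 to -0.37), the largest difference between the WT pools among the 35 genes. Against that spread, AdNTF3-Tg was at 0.35 against WT 1 and -0.06 against WT 2, and the library labelled TRKC+/- at 0.07 against WT 1 and -0.35 against WT 2, so neither mutant lay outside the WT range. *Syt1*, the fast calcium sensor of fusion, lay between 337 and 353 FPKM. *Syt11*, which lacks calcium binding, was at 191 FPKM in WT 1, 186 in WT 2, 199 in the library labelled TRKC+/- and 193 in AdNTF3-Tg, highest in the library labelled TRKC+/- by a small margin. *Doc2b*, a high-affinity calcium sensor, lay between 47.8 and 51.2 FPKM. The *Syt4* to *Syt1* ratio moved with the pools, between 1.15 and 1.59, whereas *Syt1* to *Syt2* stayed between 12.0 and 12.8. Of other synaptotagmins, *Syt5* was closer to *Syt1*, at a *Syt1* to *Syt5* ratio of 2.32 to 2.54. For *Syt1* to *Syt7* the ratio was 16.4 to 18.4.

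Markers of other cells also differed between the pools that split *Syt4*. The 8 markers of satellite glia and Schwann cells were all listed and summed to 2820 FPKM in WT 1 and 2854 in the library labelled TRKC+/- against 2509 in WT 2 and 2588 in AdNTF3-Tg. Of the 10 skeletal muscle markers, 9 were listed in all 4 libraries, with sums of 102.5 FPKM in WT 1, 47.5 in the library labelled TRKC+/-, 35.8 in AdNTF3-Tg and 3.41 in WT 2, where *Myh1* was not listed. Their part in the levels of *Syt4* was not tested. *Snap91*, a clathrin adaptor gene, also had WT 2 and AdNTF3-Tg on top, at 67.6 FPKM in WT 1, 78.3 in WT 2, 74.3 in the library labelled TRKC+/- and 79.2 in AdNTF3-Tg, and a log2 ratio of WT 1 to WT 2 of -0.21 (-0.28 to -0.13). In all, 8 of the 35 genes (22.9%) were higher in both WT 2 and AdNTF3-Tg than in either of the other libraries, against 18.8% of all genes. The active zone genes *Bsn* and *Pclo* were among these 8.

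The membrane proteins of the vesicle were led by *Syp*, encoding synaptophysin, a major protein of the vesicle membrane. It was at 394 FPKM in WT 1, 405 in WT 2, 414 in the library labelled TRKC+/- and 411 in AdNTF3-Tg, the narrowest relative range of the 4 highest genes. The synaptogyrins, related 4-pass proteins whose role in release is modulatory, came next. *Syngr3* lay between 184 and 191 FPKM, above *Syngr1*, between 157 and 166 FPKM. The 3 forms of SV2, a vesicle glycoprotein, split strongly. *Sv2a* lay between 94.4 and 98.4 FPKM. *Sv2b* was barely detected, at 0.09 FPKM in WT 1, 0.11 in WT 2, 0.13 in the library labelled TRKC+/- and 0.19 in AdNTF3-Tg, or 4, 5, 6 and 9 reads in that order, and *Sv2a* was 518 to 1049 times higher. *Sv2c* was at 61.2 FPKM in WT 1, 53.1 in WT 2, 55.8 in the library labelled TRKC+/- and 60.3 in AdNTF3-Tg. It was higher in WT 1 than in WT 2 by 0.21 on the log2 scale (0.13 to 0.30), and both mutants lay between the 2 WT values.

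Synapsins, which bind vesicles to one another and to actin until phosphorylation frees them, were dominated by *Syn2*. It was at 299 FPKM in WT 1, 309.5 in WT 2, 310.4 in the library labelled TRKC+/- and 292 in AdNTF3-Tg. *Syn1* (chrX:20437637-20498130) was at 117 FPKM in WT 1, 112 in WT 2, 121 in the library labelled TRKC+/- and 134 in AdNTF3-Tg, highest in AdNTF3-Tg and with the other 3 libraries between 112 and 121. *Syn3* was far lower, between 6.51 and 7.52 FPKM. The *Syn2* to *Syn1* ratio was lowest in AdNTF3-Tg at 2.18, against 2.56 in WT 1, 2.76 in WT 2 and 2.56 in the library labelled TRKC+/-.

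Among the genes that assemble and disassemble SNARE complexes, the complexins were close to equal, at a *Cplx2* to *Cplx1* ratio of 1.05 to 1.08. *Cplx2* was at 227 FPKM in WT 1, 222 in WT 2, 229 in the library labelled TRKC+/- and 237 in AdNTF3-Tg, highest in AdNTF3-Tg by a small margin, and *Cplx1* lay between 205 and 219.9 FPKM. The ATPase gene *Nsf* lay between 65.4 and 69.1 FPKM. Its brain-enriched adaptor *Napb* (beta-SNAP) lay between 172 and 181 FPKM and was 1.19 to 1.37 times the ubiquitous *Napa*. *Cadps* (CAPS1), a priming factor of dense-core vesicles, lay between 94.6 and 98.6 FPKM. *Cadps2* lay between 0.65 and 0.94 FPKM, on 28 to 40 reads, 103 to 145 times below *Cadps*. *Unc13a* (MUNC13-1; chr8:74150614-74195656), which opens syntaxin during priming, was at 39.6 FPKM in WT 1, 41.0 in WT 2, 41.7 in the library labelled TRKC+/- and 49.8 in AdNTF3-Tg. Its AdNTF3-Tg value was the highest of the 4 and the other 3 spanned 39.6 to 41.7. The *Unc13a* to *Unc13b* ratio was 5.33 to 7.63, highest in AdNTF3-Tg.

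Of the RAB3 GTPases that tether vesicles, *Rab3b* and *Rab3a* were expressed at similar levels and *Rab3c* was lower. *Rab3b* was at 209.8 FPKM in WT 1, 201 in WT 2, 213 in the library labelled TRKC+/- and 185 in AdNTF3-Tg. *Rab3a* was at 194 FPKM in WT 1, 184 in WT 2, 197.6 in the library labelled TRKC+/- and 178 in AdNTF3-Tg. AdNTF3-Tg was the lowest library for both, and their ratio stayed between 1.04 and 1.09. *Rab3c* was at 93.4 FPKM in WT 1, 97.8 in WT 2, 90.9 in the library labelled TRKC+/- and 108 in AdNTF3-Tg. *Rab3c* was thus highest in AdNTF3-Tg, and the *Rab3a* to *Rab3c* ratio lay between 1.65 and 2.17 over the libraries with its minimum in AdNTF3-Tg.

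The large scaffolds of the active zone were the rarest group. *Bsn* (bassoon; chr9:107998354-108092715) was at 10.4 FPKM in WT 1, 11.7 in WT 2, 9.93 in the library labelled TRKC+/- and 13.2 in AdNTF3-Tg. Its partner *Pclo* (piccolo; chr5:14514918-14863457) was at 4.64 FPKM in WT 1, 5.19 in WT 2, 4.22 in the library labelled TRKC+/- and 6.17 in AdNTF3-Tg, and the *Bsn* to *Pclo* ratio held at 2.14 to 2.35. *Erc2* (CAST, a binding partner of RIM) lay between 9.55 and 11.1 FPKM, close to *Erc1*, with a ratio of 0.841 to 0.957. *Rims2*, encoding a RIM scaffold that recruits calcium channels and MUNC13, was at 6.30 FPKM in WT 1, 6.70 in WT 2, 6.88 in the library labelled TRKC+/- and 5.29 in AdNTF3-Tg. It was lowest in AdNTF3-Tg, where *Bsn* and *Pclo* were highest. Its relative *Rims1* lay between 1.18 and 1.46 FPKM, on 43 to 55 reads. In the order of levels, all 5 lay below every SNARE gene and every priming factor except *Cadps2*.

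Of the genes that retrieve membrane after fusion, *Dnm1*, the neuronal dynamin that cuts vesicles from the membrane, lay between 119.6 and 132 FPKM. It exceeded *Dnm2* by 4.77 to 5.01 times and *Dnm3* by 5.64 to 6.43 times. *Snap91* (AP180), given above, was 1.37 to 1.49 times its ubiquitous relative *Picalm*. *Amph* (amphiphysin, which recruits dynamin) lay between 56.9 and 62.3 FPKM, slightly under *Bin1*, with a ratio of 0.846 to 0.885.

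**Figure D2:**
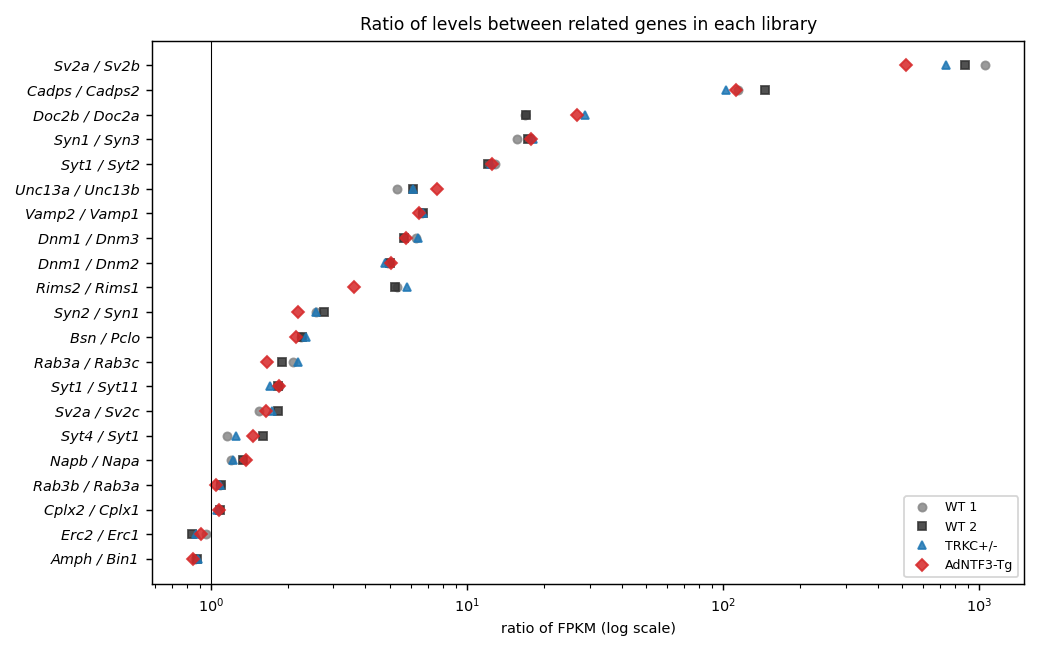
Ratio of FPKM (log axis) between related genes in each of the 4 libraries, from *Sv2a* over *Sv2b* at the top to *Amph* over *Bin1* at the bottom, with 1 marker per library. Most ratios vary little between libraries, and the *Sv2a* to *Sv2b* ratio, which rests on 4 to 9 reads of *Sv2b*, spans 518 to 1049.

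The first comparison asked which release genes differed in AdNTF3-Tg. None of the 35 was called, against 5.7% of all genes (2.12% higher and 3.58% lower), and none of the 27 with a mean of 1000 or more reads was called, against 0.0984% of the 2032 genes of that depth. The nearest to a call was *Sv2b*, at 0.61 (counting interval -0.69 to 3.30) against WT 1 and 0.47 (-0.88 to 2.78) against WT 2, which rested on 9 reads in AdNTF3-Tg against 4 and 5. It passed with a pseudocount of 0.01, against the average of both WT libraries and on counts scaled by TMM or DESeq2 size factors, but its counting intervals included 0. The median log2 ratio to the WT mean was 0.08 over the 35 genes, -0.00 over all genes and 0.05 over the 27 genes of 1000 or more reads.

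Small differences beyond counting error were present in both directions. In 6 genes both counting intervals lay above 0, namely *Bsn*, *Pclo*, *Unc13a*, *Syn1*, *Rab3c* and *Cplx2*, against 4.84% of all genes. In 3 genes, *Rab3b*, *Rims2* and *Syn2*, both lay below 0, against 5.31%. Among the 27 deeper genes, 7 met the criterion in either direction (25.9%), against 29.6% of all genes of that depth. That share was near the background for genes as deeply read. A level above both WT libraries was found in 22 genes (62.9%, against 33.7% of all genes), and in 17 of the 27 deeper genes (against 40.8%). A level below both was found in 7 genes (against 34%). Of the 10 pan-neuronal markers, the neurofilament genes *Nefm* (0.39 against WT 1 and 0.24 against WT 2) and *Nefl* (0.23 and 0.15) had both counting intervals above 0 in AdNTF3-Tg, and *Tubb3*, *Uchl1*, *Stmn2* and *Prph* had both below 0. Of the 10 sympathetic neuron markers, *Slc6a2* (0.10 and 0.04) had both above 0, and *Th* (-0.06 and -0.03) and *Phox2a* (-0.10 and -0.09) had both below 0. Of the 6 adipocyte markers, *Fabp4*, *Cidec* and *Ucp1* had both below 0. Their part in the values of the release genes was not tested.

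The largest of these differences on the higher side were in long transcripts. Log2 ratios to the WT mean were 0.32 for *Pclo*, 0.30 for *Unc13a* and 0.26 for *Bsn*. *Syn1*, of 3229 bases, followed at 0.22, above *Rab3c*, of 8500 bases, at 0.17. *Pclo* was read 793, 905, 740 and 1072 times (WT 1, WT 2, the library labelled TRKC+/-, AdNTF3-Tg), and its log2 ratio in AdNTF3-Tg was 0.40 (counting interval 0.28 to 0.55) against WT 1 and 0.25 (0.12 to 0.38) against WT 2. *Unc13a*, read 2728, 2876, 2945 and 3473 times in the same order, was at 0.33 (counting interval 0.25 to 0.40) against WT 1 and 0.28 (0.21 to 0.35) against WT 2. *Bsn*, read 1435, 1646, 1407 and 1851 times, was at 0.34 (counting interval 0.24 to 0.44) against WT 1 and 0.17 (0.08 to 0.27) against WT 2. For these 3 genes AdNTF3-Tg was the highest library, and the WT libraries differed from each other by -0.16, -0.05 and -0.17, respectively. *Syn1* was at 0.19 (counting interval 0.11 to 0.25) against WT 1 and 0.25 (0.18 to 0.32) against WT 2, against a WT difference of 0.06. *Rab3c* was at 0.21 (counting interval 0.16 to 0.25) against WT 1 and 0.14 (0.10 to 0.19) against WT 2. *Cplx2* was at 0.06 (counting interval 0.01 to 0.09) against WT 1 and 0.09 (0.05 to 0.13) against WT 2, a difference of a few percent. In all 4 libraries the deposited counts of *Cplx2*, *Rab3c* and *Syt11* were not whole, so some of their reads are divided with other genes and their values are less certain. On the lower side, *Rims2*, read 343, 361, 381 and 296 times, was at -0.25 (counting interval -0.46 to -0.01) against WT 1 and -0.34 (-0.51 to -0.05) against WT 2, with a deposited transcript length that differed by up to 1.04 times between libraries, which its intervals leave out. *Rab3b* was at -0.18 (counting interval -0.24 to -0.13) against WT 1 and -0.11 (-0.17 to -0.06) against WT 2. *Syn2* was at -0.04 (counting interval -0.09 to -0.00) against WT 1 and -0.08 (-0.13 to -0.05) against WT 2. With 1 pool, none of these can be set against a spread between transgenic pools.

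**Figure D3:**
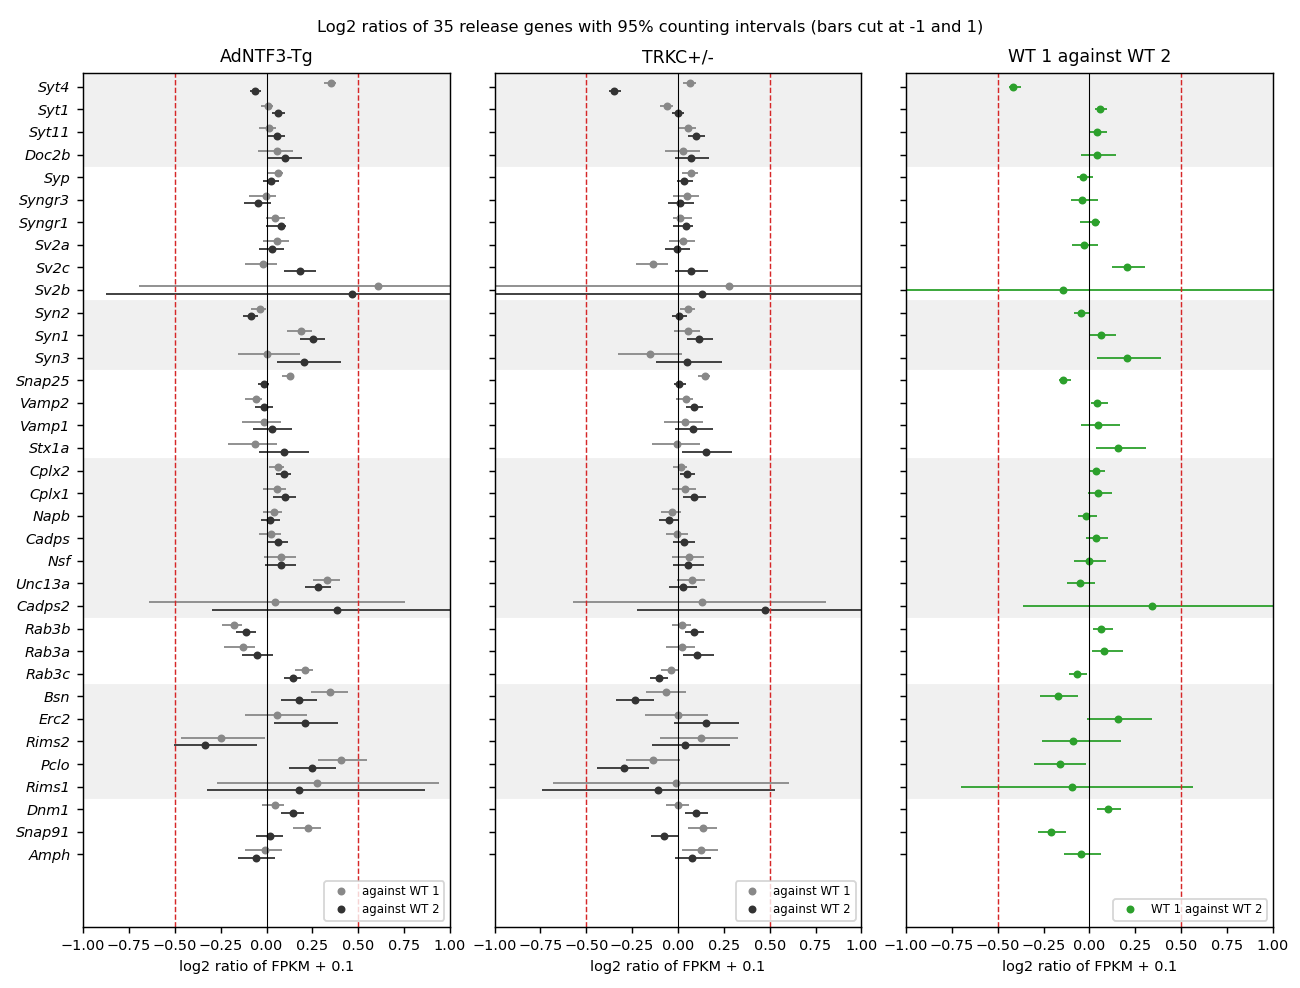
Log2 ratios of FPKM + 0.1 for the 35 genes in AdNTF3-Tg (left) and the library labelled TRKC+/- (middle) against WT 1 (grey) and WT 2 (black), and of WT 1 against WT 2 (right, green), with bars for the 95% counting interval of reads per library total, cut at -1 and 1, and dashed red lines at -0.5 and 0.5. Apart from *Sv2b* against WT 1 at 0.61, every point lies inside the red lines, and *Syt4* shows the largest difference between the WT pools at -0.41.

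The promoters of *Syn1* and *Unc13a* are shown because both genes lay above both WT libraries by more than counting error in AdNTF3-Tg, and because, of the 28 genes of the list with a window, they alone held a stretch of RE1, the site bound by REST, a repressor of neuronal genes in non-neuronal cells. The windows run from 250 bases before to 50 bases after the start in the RefSeq table (GRCm38.p6), and were matched base for base to NCBIM37. Capitals mark matches, on either strand, to the left arm TTCAGCACC and the right arm GGACAGCGC of RE1 and to the cAMP response element TGACGTCA, none of which overlaps another.
Syn1, chrX:20497995-20498294, minus strand: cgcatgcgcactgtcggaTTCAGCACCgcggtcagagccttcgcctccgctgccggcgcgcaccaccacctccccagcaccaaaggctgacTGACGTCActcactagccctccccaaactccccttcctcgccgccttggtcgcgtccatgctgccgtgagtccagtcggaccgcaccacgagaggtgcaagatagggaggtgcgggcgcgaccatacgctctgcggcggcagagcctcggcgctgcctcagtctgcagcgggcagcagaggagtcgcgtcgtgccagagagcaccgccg
Unc13a, chr8:74195607-74195906, minus strand: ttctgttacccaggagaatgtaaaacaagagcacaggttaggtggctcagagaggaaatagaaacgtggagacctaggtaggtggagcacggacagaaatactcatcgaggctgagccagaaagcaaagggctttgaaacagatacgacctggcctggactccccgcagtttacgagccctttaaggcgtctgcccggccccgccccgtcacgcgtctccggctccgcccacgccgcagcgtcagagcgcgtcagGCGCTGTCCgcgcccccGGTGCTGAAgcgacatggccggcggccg

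In *Syn1* the left arm begins 232 bases before the start and the cAMP response element 159 bases before it. In *Unc13a* both arms lie on the antisense strand, beginning 5 and 22 bases after the start. Windows were found for 28 of the 35 genes, 34 windows in all, since some genes have more than 1 start. The left arm was in 5.88% of these windows, against 0.371% of the 32851 windows of all genes. Of the 34 windows, the right arm was in *Unc13a* alone, against 0.405% of all windows, and the cAMP response element in *Syn1* alone, against 1.79%. The GC box GGGCGG, searched on both strands and not capitalised, was in 21 of the 34 windows (61.8%), against 35.7% of all windows. A match is a description of letters, and binding was not measured.

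The difference in AdNTF3-Tg went along with transcript length, in the release genes and over the genes of 1000 or more reads. Among the 2032 genes of 1000 or more reads, the median log2 ratio to the WT mean was -0.10 for transcripts under 2000 bases, 0.01 for 2000 to 4000, 0.08 for 4000 to 6000 and 0.11 for 6000 or more. In the release genes the medians of the same classes were -0.06 (2 genes), 0.04 (15), 0.08 (11) and 0.17 (7). Spearman's rho of length with the ratio was 0.59 over the 35 genes, 0.58 over the 27 deeper ones and 0.67 over the 2032 genes, given as a description, since all points share the same libraries. After the median of its length class was taken off, *Pclo* stood at 0.22, *Syn1* at 0.21, *Unc13a* at 0.20, *Bsn* at 0.15, *Rab3c* at 0.07, *Cplx2* at -0.00, *Syn2* at -0.07, *Rab3b* at -0.15 and *Rims2* at -0.40, so that *Cplx2* alone of the 9 changed sign, and the median of the list went from 0.08 to 0.03. *Bsn* and *Pclo* are far longer than the lower bound of their class, at 15953 and 19724 bases. The neuronal markers with both counting intervals below 0 in AdNTF3-Tg all had transcripts under 2000 bases. Their log2 ratios to the WT mean were -0.10 for *Tubb3*, -0.12 for *Uchl1*, -0.06 for *Stmn2*, -0.04 for *Prph*, -0.04 for *Th* and -0.10 for *Phox2a*. Those with both above 0, *Nefl*, *Nefm* and *Slc6a2*, had transcripts of 2014, 3244 and 6073 bases. The part that transcript length plays in these values was not tested.

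**Figure D4:**
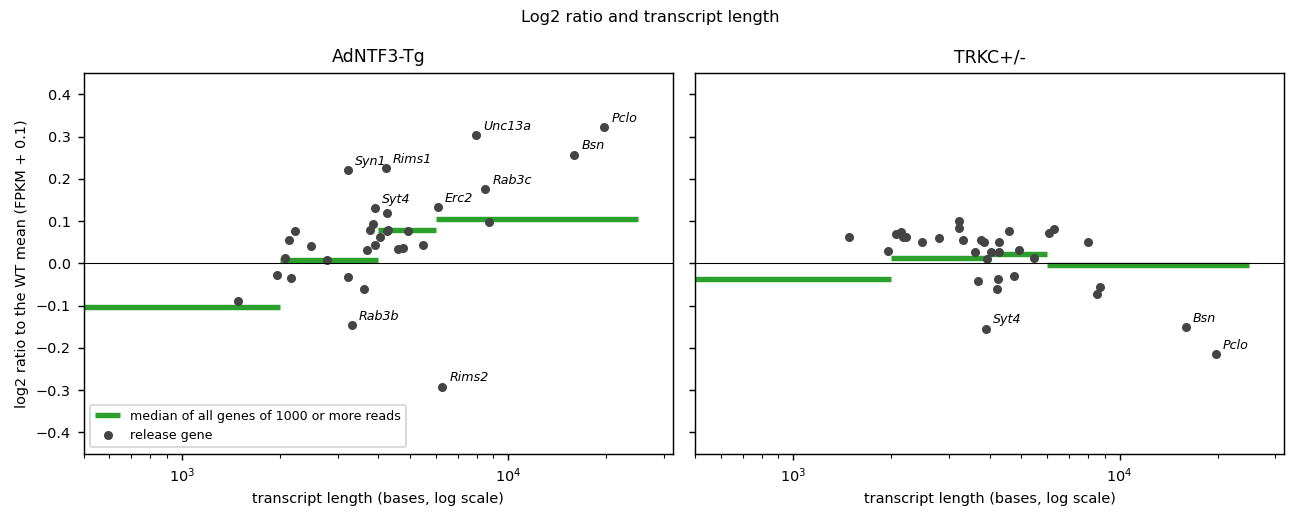
Log2 ratio to the WT mean (FPKM + 0.1) against transcript length (log axis) for AdNTF3-Tg (left) and the library labelled TRKC+/- (right). Grey points are the release genes other than *Cadps2* and *Sv2b*, and green lines are medians of all genes of 1000 or more reads in 4 length classes. In AdNTF3-Tg the green lines step from -0.10 to 0.11, and *Pclo*, *Unc13a* and *Bsn* lie above the last of them, whereas *Rims2* lies far below.

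The second comparison asked the same of the library labelled TRKC+/-. Again none of the 35 genes was called, against 4.27% of all genes (1.78% higher and 2.49% lower) and 0 of the 2032 deeper genes. The median log2 ratio to the WT mean was 0.05 over the 35 genes and 0 over all genes. Both counting intervals lay above 0 for *Syt11* alone, at 0.06 (counting interval 0.01 to 0.10) against WT 1 and 0.10 (0.06 to 0.15) against WT 2 (against 2.34% of all genes), and both lay below 0 for no gene (against 2.12%). A level above both WT libraries was found in 21 genes (60%, against 31.9% of all genes), and in 18 of the 27 deeper genes (against 33.7%). A level below both was found in 6 genes (against 30.8%). Of the 6 adipocyte markers, *Ucp1* (log2 ratio -2.59 against WT 1 and -2.61 against WT 2) and *Fabp4* (-0.86 and -0.74) were called lower in the same library, with counting intervals below 0. Of the 10 sympathetic neuron markers, *Th*, *Slc6a2*, *Hand2* and *Phox2a* had both counting intervals above 0 there, and of the pan-neuronal markers *Elavl3* and *Tubb3* had both above 0 and *Stmn2* both below 0. Their part in the values of the release genes was not tested. The SNARE genes *Snap25*, *Vamp2* and *Vamp1* were among the 21, and in each of them the log2 ratio to the nearer WT library was under 0.05. *Snap25* was at 0.15 against WT 1 and 0.00 against WT 2.

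The paired active zone scaffolds *Bsn* and *Pclo* were lowest in the library labelled TRKC+/-. *Pclo* was at -0.13 (counting interval -0.28 to 0.01) against WT 1 and -0.29 (-0.44 to -0.16) against WT 2. *Bsn* was at -0.06 (counting interval -0.17 to 0.04) against WT 1 and -0.23 (-0.34 to -0.13) against WT 2. For each of them the interval against WT 1 included 0. As for *Syt4*, WT 2 and AdNTF3-Tg lay above WT 1 and the library labelled TRKC+/- for both genes. The log2 ratio of WT 1 to WT 2 was -0.17 (counting interval -0.27 to -0.06) for *Bsn* and -0.16 (-0.30 to -0.02) for *Pclo*. Of the other active zone genes, *Rims2* was at 0.13 against WT 1 and 0.04 against WT 2, *Rims1* at -0.01 and -0.11, and *Erc2* at -0.00 and 0.15. *Rab3c* was at -0.04 against WT 1 and -0.11 against WT 2. *Unc13a*, by contrast, was at 0.08 against WT 1 and 0.02 against WT 2. *Syn1* was at 0.05 against WT 1 and 0.11 against WT 2. Over the genes of 1000 or more reads, the length classes in the library labelled TRKC+/- had medians between -0.04 and 0.02, against -0.05 for the 7 release genes of 6000 bases or more, and rho with length was -0.36 over the 35 release genes, -0.59 over the 27 of them with 1000 or more reads and 0.18 over the 2032 genes of that depth. Less their class median, *Bsn* was at -0.15 and *Pclo* at -0.21.

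The study's question was of genes moving in opposite directions, and none of the 35 was called in opposite directions, against 0.183% of all genes. The comparisons share both WT libraries, so their values are not independent of each other. Of 8 markers of sensory neurons 7 were listed in all 4 libraries and *Mrgprd* was not listed in the library labelled TRKC+/-, and the sums were 66.3 FPKM in WT 1, 63.8 in WT 2, 63.6 in the library labelled TRKC+/- and 74.1 in AdNTF3-Tg, most of it *Isl1*, which sympathetic neurons also express. In AdNTF3-Tg 6 of the 7 lay above both WT libraries, and *Calca* was called higher, at 0.56 (counting interval -0.10 to 1.21) against WT 1 and 0.96 (0.30 to 1.75) against WT 2 on 35 reads in WT 1, 26 in WT 2 and 52 in AdNTF3-Tg, but none of the 7 had both counting intervals beyond 0. In the library labelled TRKC+/- 5 of the 7 lay below both WT libraries, and 2 of them had both counting intervals below 0, *Tac1* on 78 reads in WT 1, 68 in WT 2 and 37 in that library and *Scn10a* on 27, 25 and 10 reads. Their part in the values of *Bsn* and *Pclo* was not tested.

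Between the 2 WT libraries, 0 of the 35 genes differed by 0.5 or more, against 13.4% of all genes and 0.394% of those of 1000 or more reads. Counting intervals of 17 of the 35 genes excluded 0 (against 20.5% of all genes), as did those of 14 of the 27 deeper genes (against 38.9%), so WT pools alone differed by more than counting error in many of these genes. The highest of the 4 libraries was a median of 1.07 times the lowest over the 27 release genes of 1000 or more reads, and 1.11 times over all 2032 genes of that depth.

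A second list, of 81 other genes of vesicles, release and membrane retrieval, was read in the same way. Of these, 77 were listed in all 4 libraries, and *Syt13*, *Cplx3*, *Cplx4* and *Unc13c* were missing from at least 1. In AdNTF3-Tg 0 of the 77 were called higher and 2 lower (2.6%), below the 3.58% of all genes called lower and the 5.7% called either way. One was *Doc2a* (chr7:133990930-133996219), the relative of *Doc2b* that senses calcium in spontaneous release, at 2.94 FPKM in WT 1, 2.81 in WT 2, 1.75 in the library labelled TRKC+/- and 1.91 in AdNTF3-Tg (64, 62, 39 and 42 reads). Its log2 ratio in AdNTF3-Tg was -0.60 (counting interval -1.23 to -0.05) against WT 1 and -0.53 (-1.16 to 0.03) against WT 2. The other was *Vamp8* (chr6:72335217-72340697), a SNARE of endosomes and of secretion outside neurons, at 17.4 FPKM in WT 1, 17.1 in WT 2, 14.6 in the library labelled TRKC+/- and 11.7 in AdNTF3-Tg (111, 109, 94 and 74 reads), with -0.57 (counting interval -1.05 to -0.17) against WT 1 and -0.55 (-0.998 to -0.11) against WT 2. Centring within transcript length classes ended the call of *Vamp8*, with a log2 ratio to the WT mean of -0.45 in place of -0.56. In the library labelled TRKC+/- 2 of the 77 were called (2.6%), both lower, near the 2.49% of all genes called lower. *Doc2a* was at -0.72 (counting interval -1.37 to -0.16) against WT 1 and -0.65 (-1.29 to -0.08) against WT 2, and *Synpr* had a mean under 1 FPKM. *Doc2a* was thus lower in both mutant libraries than in either WT library, on 39 to 64 reads, and with a pseudocount of 1 it was called in neither. The *Doc2b* to *Doc2a* ratio ran from 16.7 to 28.7. The median log2 ratio of the 77 genes was 0.04 in AdNTF3-Tg and -0.01 in the library labelled TRKC+/-.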

How the data were processed

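mRNA was selected with oligo(dT) beads and read from 1 end by BGI Americas. Per the study's methods, SOAPnuke (v1.5.2) removed poor reads and HISAT2 (v2.0.4) aligned the rest to mm9. The submitters' processing notes name RSEM and mm10, so the build behind the counts is not settled. For each Entrez gene the authors deposited an expected count, not normalized and not always whole, and an FPKM value scaled to transcript length and library size, beside that length. Strand use in counting is not given in the sources used here, so overlapping genes may share reads. Genes without reads are not listed.

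The 35 genes were matched by symbol through a RefSeq table (GRCm38.p6, used for names, covering 17619 or 99.7% of identifiers). Positions are from GENCODE on NCBIM37. The rule for the 35 genes uses no measured value, but the members and lists were chosen with earlier results of these data known. Besides the 35, the genes named are the paralogs needed for family ratios, other release genes called in a mutant with a mean of at least 1 FPKM, cell type markers, and *Ntrk3*. *Synpr*, *Syt10* and the 4 release genes not listed in every library were named after their values were seen.

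Log2 ratios used FPKM + 0.1 over genes listed in all 4 libraries, with a cutoff of 0.5, the study's own. Counting intervals came from expected counts rounded to whole numbers. The floor of 3 reads lay between 0.337 and 0.346 CPM. Alternatives were pseudocounts of 1 and 0.01, a mean of at least 1 FPKM, missing genes taken as 0, centring on the median, a cutoff of 1, the average WT as control, each WT library left out, edgeR 4.0.16 TMM, DESeq2 1.42.0 size factors and, added after the data were seen, centring within length classes. Code ran in Python 3.11.15 and R 4.3.3 and was tested on simulated data.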

Additional observations from a re-analysis of the deposited data

How the results depend on the processing

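With 1 pool per mutant, nothing here measures how far 2 pools of the same mutant would differ, and genes of few reads (*Sv2b*, *Cadps2*, *Rims1*) are limited by counting. The number of the 35 genes called in AdNTF3-Tg was 0, and became 1 with a pseudocount of 0.01, with TMM, with DESeq2 size factors and with the average of the WT libraries as control. Under the pseudocount, TMM and DESeq2 that gene was *Sv2b*. Leaving out a WT library gave 0 to 1. In the library labelled TRKC+/-, for opposite directions and between the WT libraries the number stayed at 0 under every alternative run. Of the other release genes, 2 were called in AdNTF3-Tg, against 1 with a pseudocount of 1, 3 with a pseudocount of 0.01 or the average WT as control, 4 with missing genes taken as 0, 0 with a cutoff of 1 and 4 to 7 with a WT library left out. Centring within length classes also gave 2, with *Syt10* in place of *Vamp8*. In the library labelled TRKC+/- 2 were called, against 0 with a pseudocount of 1, 1 with a mean of at least 1 FPKM, 0 with a cutoff of 1 and 2 to 5 with a WT library left out. The median log2 ratio of the 35 genes in AdNTF3-Tg was 0.08, against 0.0275 when centred within length classes, by construction of that alternative, and 0.0456 to 0.0762 with a WT library left out. In the library labelled TRKC+/- it was 0.0292 to 0.0496 with a WT library left out. Of the 70 log2 ratios to the WT mean, 12 changed sign when centred within length classes, 6 without WT 1 and 7 without WT 2, and none under either pseudocount, the filter, missing genes taken as 0, centring on the median, TMM or DESeq2 size factors. The cause of the other shifts was not tested. No paired analysis was possible because each mutant had 1 library and the groups compared share fewer than 2 replicate numbers.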
